A study of Mus musculus with 50 samples.

Results

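Troponins and myosin light chains exist in a slow and a fast form in skeletal muscle, and 10 of their genes were followed here through aging of the mouse gastrocnemius, a calf muscle made mostly of fast fibers. The members were the rows with 10 listed gene symbols, of 23880 genes in the tables. The 5 slow members were Tnnc1, Tnni1, Tnnt1, Myl2 and Myl3, and the 5 fast members were Tnnc2, Tnni2, Tnnt3, Mylpf and Myl1. All 10 were present in both tables, and all 10 were among the 12586 genes that passed the filter on low counts (CPM, the counts scaled to library size, of 1 or more in 8 or more mice).

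Libraries of polyadenylated, strand-marked RNA were made from 50 male wild-type mice of the inbred strain C57BL/6JRj, with 1 library per mouse. The groups held 8 mice per age at 8, 18, 22 and 24 months and 9 mice per age at 26 and 28 months. The study takes the youngest pair of ages as adult, the next pair as early sarcopenic and the oldest pair as sarcopenic, the state of age-related muscle loss. All mice were singly caged and ate the purified AIN93M diet, and no animal with visible disease or a tumor was used. According to the Methods, mice of 8 and 18 months had at least 2 months on this diet, while those of 22 to 28 months received it from about 18 months of age onward. Diet history therefore differs between 8 months and the groups of 22 to 28 months and cannot be told apart from age in those comparisons, whereas 8 and 18 months share 1 schedule and 22 to 28 months another. Total counts per mouse lay between 13607229 and 21267375, and the medians by age lay between 15332386.5 at 24 months and 18409468 at 8 months.

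The troponin complex sits on the thin filament and switches contraction on when calcium rises. Troponin C binds the calcium, troponin I holds the filament in the inhibited state, and troponin T anchors the complex to tropomyosin. Myosin light chains wrap around the neck of the myosin heavy chain. The essential light chain stiffens the neck and the regulatory light chain can be phosphorylated. Slow fibers use Tnnc1, Tnni1, Tnnt1, Myl2 and Myl3, of which Tnnc1, Myl2 and Myl3 also serve the ventricle of the heart, and fast fibers use Tnnc2, Tnni2, Tnnt3, Mylpf and Myl1. Each slow gene thus has a fast counterpart in the same position of the filament.

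The 10 genes lie (GRCm38, GENCODE vM21) on chromosomes 1, 2, 5, 7, 9 and 14. Myl1 occupies bases 66924295 to 66945404 of the minus strand of chromosome 1, a chromosome it shares with Tnni1. Tnnc2 is a short gene of 2807 bases on the minus strand of chromosome 2, from 164777161 to 164779967. Tnni2 (142441808 to 142444410) and Tnnt3 (142498836 to 142516009) stand in the same direction on chromosome 7 with Lsp1 between them. Tnnt1, on the minus strand of the same chromosome from 4504570 to 4516382, has the cardiac troponin I gene Tnni3 as its neighbor 1922 bases away. Tnnc2 overlaps Ube2c, Tnnc1 overlaps Nisch, Myl3 overlaps Pth1r and Myl2 overlaps Ccdc63 in the annotation.

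RefSeq promoter windows on GRCm38.p6, the 250 bases before a gene start, were found for 8 of the 10 members and not for Tnni2 and Tnnt3, with 2 windows each for Tnni1 and Myl2. Every one of these 8 held at least 1 E-box (CANNTG on either strand, the letters bound by MyoD family factors), against 66.2% of 32851 promoter windows of the same length. The MCAT letters CATTCC, read on both strands and bound by TEAD factors, were in 3 of the 8 (Tnnc1, Myl3 and Myl1), against 12.6% of all windows. TATAAA on either strand was in Tnnt1, Myl2 and Myl1 (12.4% of all windows), a strict CArG box was in Myl3 (1.47%), and a strict MEF2 site was in none of the 8 (2.92%). These are matches of letters and were not tested as binding sites. The windows of 2 slow and fast pairs, the troponins C and the essential light chains, are shown because Tnnc2 and Myl1 are the members that changed, as far as the window lies outside exons of protein-coding transcripts. Each runs from 5′ to 3′ toward the gene, and capitals mark an E-box, an MCAT, a TATAAA or a CArG match, none of which overlap.
Tnnc1, chr14:31208062-31208311 (+ strand): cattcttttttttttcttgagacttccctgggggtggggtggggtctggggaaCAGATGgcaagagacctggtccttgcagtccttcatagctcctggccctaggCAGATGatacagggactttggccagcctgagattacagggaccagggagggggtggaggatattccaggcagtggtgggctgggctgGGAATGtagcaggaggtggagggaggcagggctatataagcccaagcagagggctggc
Tnnc2, chr2:164779742-164779984 (- strand): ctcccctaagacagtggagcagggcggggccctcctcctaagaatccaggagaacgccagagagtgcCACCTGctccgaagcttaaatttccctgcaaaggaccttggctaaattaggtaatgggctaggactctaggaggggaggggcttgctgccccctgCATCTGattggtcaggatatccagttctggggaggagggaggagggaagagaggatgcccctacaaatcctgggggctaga
Myl3, chr9:110763428-110763645 (+ strand): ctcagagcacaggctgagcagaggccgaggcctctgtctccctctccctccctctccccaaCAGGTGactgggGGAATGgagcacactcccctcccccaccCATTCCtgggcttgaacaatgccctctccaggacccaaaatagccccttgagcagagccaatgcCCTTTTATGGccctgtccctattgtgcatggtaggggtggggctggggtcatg
Myl1, chr1:66945144-66945290 (- strand): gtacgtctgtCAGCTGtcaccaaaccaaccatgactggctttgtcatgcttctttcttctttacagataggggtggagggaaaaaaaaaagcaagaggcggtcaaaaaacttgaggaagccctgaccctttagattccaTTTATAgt
Tnnc1 shows its E-boxes 192 and 140 bases before the start and GGAATG, the MCAT letters on the other strand, at 53 bases. Tnnc2 has E-boxes at 178 and 83 bases and neither MCAT nor TATAAA. Myl3 has an E-box at 184 bases, MCAT letters at 172 and 144 bases and its CArG box at 76 bases. Myl1 has an E-box at 219 bases and TTTATA at 90 bases, and its MCAT match, at 75 bases, falls in the exon that was left out. Myl1 is known to make a long and a short light chain from separate promoters, and the tables add all transcripts of a gene, so that the forms cannot be separated here.

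Together the 10 genes made up 13.02% of all TPM (a level per transcript length, scaled to the library) on average over the 50 mice, with a range from 9.04 to 15.9%. The 5 fast genes carried 12.9% and the 5 slow genes 0.166%, the latter with a range from 0.0269 to 0.399%. Tnnt3, fast troponin T, had the highest mean TPM of all genes in the table at 41563 ± 3256 (SD, n = 50). The other fast members followed with Mylpf at 23230 ± 3145 TPM, Tnnc2 at 22175 ± 2701, Tnni2 at 21931 ± 1970 and Myl1 at 19673 ± 4096, at ranks 6, 7, 8 and 10 among all genes. Among these 4, neighbors in the order differed by less than the larger of their SDs, while Tnnt3 stood apart. The order pools all 6 ages. At 8 months Myl1 had the highest mean of the 4, at 24360 ± 1507 TPM (SD, n = 8). Tnnc2 was then at 23821 ± 1732 TPM, Mylpf at 23192 ± 3027 and Tnni2 at 22625 ± 1913. Among slow members the light chains Myl2 (552 ± 285 TPM) and Myl3 (507 ± 234 TPM) stood above Tnnt1 (230 ± 127 TPM), Tnnc1 (211 ± 120 TPM) and Tnni1 (162 ± 89.9 TPM). The light chains did not differ beyond their SD, nor did neighbors among the troponins, and the step from Myl3 to Tnnt1 was larger than the SD of either gene.

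Markers of the tissue were checked first. Acta1, skeletal muscle actin, was the most abundant of 6 listed fiber markers with a median of 41040 TPM over the 50 mice, and Myh4, the myosin heavy chain of the fastest fibers, had a median of 18569 TPM. The cardiac marker Myl7 was at 0 in all 50 mice, Nppa was at 0 in 43 and Tnni3 in 10, while Ryr2, the most abundant of the 5 listed cardiac genes, had 11.4 TPM on average at 28 months. Replicate 2 of 28 months stood apart from the other libraries. Its summed fiber markers (60456 TPM) were the lowest of the 50 mice, while its endothelial (131 TPM) and macrophage (53.4 TPM) sums were the highest, and the medians at 28 months were 86397, 86.1 and 27.3 TPM. The same mouse had the lowest CPM of Tnnc2, Tnni2, Tnnt3, Mylpf and Myl1 at 28 months. The fold changes of these genes at 28 months are given with and without it. So are the ratios and shares drawn from them, except the ratio of Tnnc2 to Tnni2.

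Myl1, the fast essential light chain, fell with age more than any other member. CPM values below are scaled by TMM factors (trimmed mean of M-values) and compare a gene with itself. At 8 months the lowest, median and highest of 8 mice were 9337, 11717 and 13024 CPM, and at 18 months they were 8513, 9975 and 13898 CPM. At 22 months they were 8442, 9665 and 11794 CPM, and at 24 months 7205, 9089 and 11078 CPM. Up to this age the groups overlapped widely, although all 8 mice of 24 months were already below the median at 8 months. At 26 months the values were 5363, 8493 and 11065 CPM, and 8 of 9 mice were below every mouse of 8 months. At 28 months they were 3368, 6776 and 9313 CPM, and all 9 mice lay below all 8 mice of 8 months. Such a complete separation downward was seen in 2.24% of all genes tested.

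The fold changes gave the same picture on the log2 scale of the counts (edgeR quasi-likelihood test, false discovery rate, FDR, adjusted over all 12586 genes, threshold 0.01). Myl1 fell by 0.80 between 8 and 28 months (SE 0.13, FDR 4.63e-06), which is a loss of 42.8%. It fell by 0.50 at 26 months (SE 0.13, FDR 0.0036), and the differences at 24, 22 and 18 months, -0.34, -0.22 and -0.14, did not pass. Within the shared diet schedule, 28 against 22 months, Myl1 fell by 0.58 (SE 0.13, FDR 0.00061), a call that was lost in a fit of these 2 ages alone (FDR 0.0111). The step from 22 to 24 months (-0.12, FDR 0.9998) and that from 22 to 26 months (-0.28, FDR 0.138) did not pass. In the main fit Myl1 was also the only member that passed the test for a difference among any of the 6 ages (FDR 3.62e-05). In that test 35.4% of all genes passed. Tnnc2 passed it as well with library size alone (FDR 0.00069) and in limma on log2(TPM + 1) (FDR 0.00777) and log2(TPM + 0.1) (FDR 0.00686). Without replicate 2 of 28 months the fall of Myl1 from 8 to 28 months was 0.72 (FDR 9.81e-06) and that from 22 months 0.50 (FDR 0.0016). The call at 26 months rested on replicate 1 of that age in part, since without it the change was -0.44 (FDR 0.0117).

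Tnnc2, the calcium sensor of fast fibers, showed a smaller decrease. At 8 months it ranged from 7678 to 11435 CPM around a median of 9739, and at 28 months from 4462 to 9038 CPM around a median of 8055. All 9 mice of 28 months were below the median at 8 months and 4 of them below every mouse of 8 months, so that the groups overlapped in part. The medians at 18, 22, 24 and 26 months were 8689, 9138, 9185 and 8260 CPM. Tnnc2 fell by 0.36 between 8 and 28 months (SE 0.11, FDR 0.00565), a loss of 22.1%. Against 22 months the difference was -0.33 (SE 0.11, FDR 0.0147) and did not pass. Without replicate 2 of 28 months it was -0.26 (FDR 0.0399). This difference passed with upper-quartile factors, library size alone and limma with either pseudocount. It also passed without replicate 5 of 22 months or replicate 4 of 28 months. The call between 28 and 8 months was lost without the filter on low genes and in a fit of these 2 ages alone. It also depended on single mice, and without replicate 2 of 28 months the change was -0.29 (FDR 0.0166). It was also lost without replicate 1, 3 or 4 of 8 months (FDR 0.0162, 0.0144 and 0.0119) and without replicate 8 of 28 months (FDR 0.0105).

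The other 3 fast genes did not pass between 28 and 8 months. Tnni2, the inhibitory subunit, had a median of 9396 CPM at 8 months (6658 to 10569) and of 8003 CPM at 28 months (5771 to 8430). All 9 mice of 28 months were below the median at 8 months, and the difference of -0.23 (SE 0.10, FDR 0.0519, 95% interval -0.43 to -0.03) passed only when no scaling factors were used. Tnnt3, which links the complex to tropomyosin, had medians of 21159 CPM at 8 months (17891 to 24028) and 20059 CPM at 28 months (15734 to 23344), with a difference of -0.06 (95% interval -0.25 to 0.13). Mylpf, the fast regulatory light chain and the phosphorylated one of the pair, had medians of 8740 (5952 to 10067) and 8431 CPM (3605 to 9585), with a difference of -0.06 (95% interval -0.33 to 0.21). The ranges of 8 and 28 months overlapped in all 3 genes. Without replicate 2 of 28 months the difference was -0.18 for Tnni2 (FDR 0.121) and -0.02 for Tnnt3 (FDR 0.871), and that of Mylpf turned to 0.03 (FDR 0.826).

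Of the 5 fast genes, 2 thus passed between 28 and 8 months, both lower, while 39.6% of all genes tested passed (18.7% lower and 21% higher). That share of the fast members is close to the background. At 26 months 1 of 5 passed, beside 18.4% of all genes (9.84% higher and 8.54% lower), and between 28 and 22 months 1 of 5, beside 27.7% of all genes (16.2% higher and 11.5% lower). Of the calls between 28 and 22 months 58.3% were higher with TMM, 43.4% with upper-quartile factors and 45.8% with library size alone. Of the calls between 28 and 8 months 52.9% were higher with TMM, 44.9% with upper-quartile factors and 44.7% with library size alone, so that the balance over all genes depended on the scaling in both comparisons. No fast member passed at 18, 22 or 24 months against 8 months, nor at 24 or 26 months against 22 months, where 0.0715, 0.0397, 0.612, 0 and 2.65% of all genes passed. At an unadjusted p under 0.05, edgeR gave 0, 0, 1, 0 and 1 fast genes in those 5 comparisons and DESeq2 called 0 in each. The median log2 fold change of the fast genes between 28 and 8 months was -0.23, beside 0.01 for all genes, and the 5 values were below 0 except for Tnnt3 at 0.00 in limma on TPM and Mylpf without the mouse named above.

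**Figure D1:**
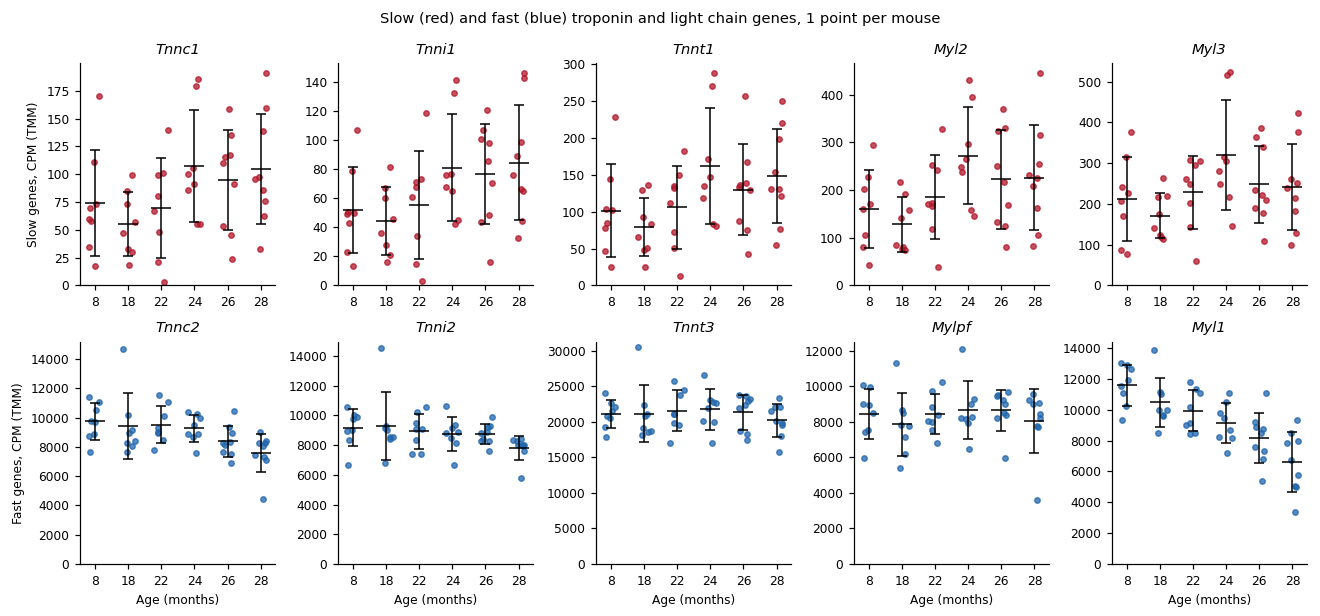
CPM (TMM-scaled, linear axis from 0) of the 5 slow genes (top, red) and 5 fast genes (bottom, blue) against age in months, with 1 point per mouse and the mean ± SD of each age in black. Myl1 declines from a median of 11717 CPM at 8 months to 6776 CPM at 28 months, while the slow genes scatter over several-fold within each age.

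**Figure D2:**
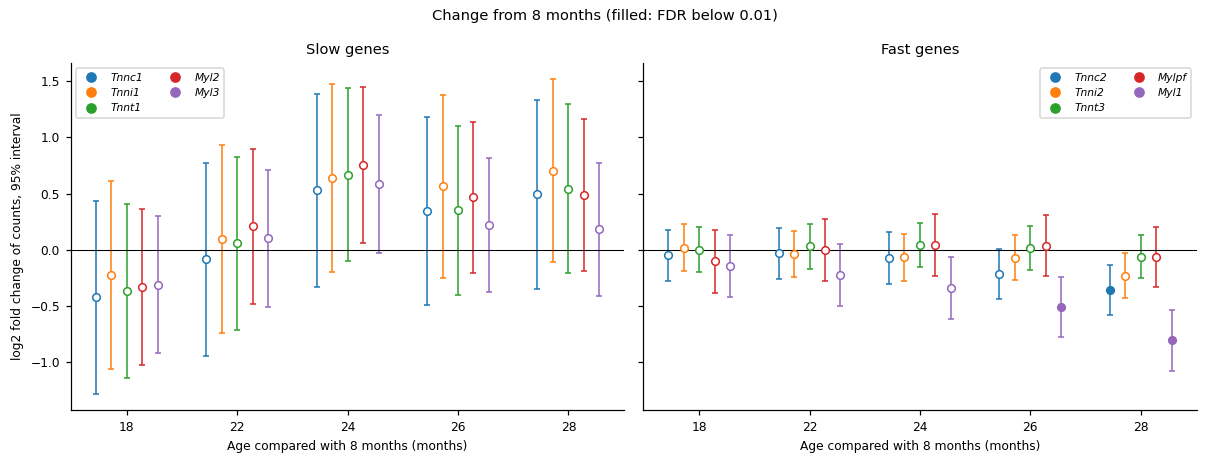
Log2 fold change of each slow gene (left) and fast gene (right) at 18 to 28 months against 8 months, with 95% intervals derived from the edgeR F statistic and filled points where FDR was below 0.01. The 3 filled points are Myl1 at 26 and 28 months and Tnnc2 at 28 months, and the slow intervals are wide and reach 0 in all but 1 case.

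A bulk measurement cannot tell fewer cells of a type from less RNA per cell, which bears on every level in these libraries. Ratios between fast genes of the same mouse were therefore set beside the levels, since they need no scaling between libraries. The pairs were chosen after the values had been seen, and no test was made. The TPM ratio of Myl1 to Mylpf, the light chains of the same myosin neck, was 1.06 ± 0.0999 (SD, n = 8) at 8 months and 1.04 ± 0.104 at 18 months. It was 0.903 ± 0.0851 at 22 months, 0.818 ± 0.130 at 24 months, 0.726 ± 0.118 at 26 months and 0.635 ± 0.109 at 28 months (n = 9 at the last 2 ages). Below the lowest mouse of 8 months (0.908) were 5 of 8 mice at 22 months, 6 of 8 at 24 months and all 9 at each of 26 and 28 months. Replicate 2 of 28 months, with 0.719, stood inside the range of its age (0.499 to 0.801). The ratio was thus low also in the mouse whose fast genes were all low, and without that mouse the mean at 28 months was 0.624 ± 0.111 (SD, n = 8). The slow light chains gave a smaller fall with wider spread. Myl3 to Myl2 was 1.06 ± 0.172 at 8 months and 0.858 ± 0.0939 at 28 months, where 4 of 9 mice were below every mouse of 8 months.

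Tnnc2 was lower relative to fast troponin T in most mice of the oldest ages. Its TPM ratio to Tnnt3 was 0.583 ± 0.0373 at 8 months, 0.561 ± 0.0237 at 18, 0.559 ± 0.0189 at 22 and 0.540 ± 0.0310 at 24 months (SD, n = 8 each). At 26 months it was 0.499 ± 0.0487 and at 28 months 0.475 ± 0.0748 (SD, n = 9 each), and 7 of 9 mice at each of these ages were below the lowest mouse of 8 months. The lowest ratio at 28 months, 0.360, belonged to replicate 2, without which the mean was 0.490 ± 0.0652 (SD, n = 8). The ratio of Tnni2 to Tnnt3 was steadier, with 0.553 ± 0.0415 at 8 months and 0.495 ± 0.0331 at 28 months, and 3 of 9 mice were below the range of 8 months. Without replicate 2 it was 0.498 ± 0.0339 at 28 months (SD, n = 8). The ratio of Tnnc2 to Tnni2 was 1.06 ± 0.077 at 8 months and 0.956 ± 0.105 at 28 months, with 5 of 9 mice below the range of 8 months. Among slow troponins, Tnnc1 to Tnnt1 was 0.954 ± 0.047 at 8 months and 0.921 ± 0.0922 at 28 months. Tnni1 to Tnnt1 was 0.674 ± 0.0669 and 0.740 ± 0.0606. Fast troponin holds its 3 subunits in equal numbers as protein, and these ratios are of RNA.

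**Figure D3:**
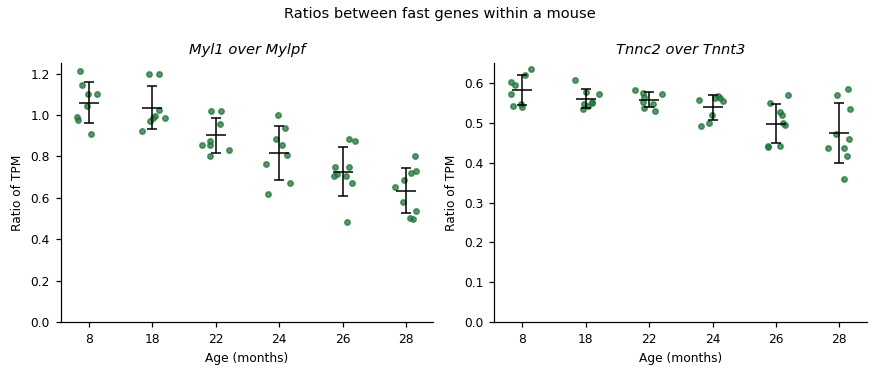
Ratio of TPM of Myl1 to Mylpf (left) and of Tnnc2 to Tnnt3 (right) against age in months, 1 point per mouse, with mean ± SD in black and axes from 0. The left ratio goes from 1.06 at 8 months to 0.635 at 28 months with no overlap between these ages, and the right ratio from 0.583 to 0.475 with overlap.

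The slow genes differed from mouse to mouse far more than from age to age. Tnnc1, slow troponin C, ranged from 17.5 to 170 CPM at 8 months around a median of 64.4, and from 33.1 to 191 CPM at 28 months around a median of 95.5. Tnni1 ranged from 13.6 to 107 CPM (median 49.4) at 8 months and from 33.0 to 146 CPM (median 76.1) at 28 months. Tnnt1 ranged from 24.7 to 228 CPM (median 93.1) and from 54.8 to 249 CPM (median 131). In each troponin gene 7 of 9 mice of 28 months were above the median at 8 months, yet the ranges overlapped almost entirely. The slow regulatory light chain Myl2 went from 43.7 to 295 CPM (median 166) at 8 months and from 82.5 to 446 CPM (median 225) at 28 months. Myl3, the slow essential light chain and the gene in the same position as Myl1, went from 76.0 to 377 CPM (median 216) and from 99.0 to 423 CPM (median 239), with 5 of 9 mice above the median at 8 months.

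None of the 5 slow genes passed in any of the 8 comparisons by edgeR, DESeq2 or limma. Over all genes, 39.6% passed between 28 and 8 months, 18.4% between 26 and 8 months and 27.7% between 28 and 22 months. At most 2.65% passed in each of the other comparisons. The only slow gene with an unadjusted edgeR p under 0.05 was Myl2 at 24 against 8 months (FDR 0.213). Between 28 and 8 months the log2 fold changes were 0.71 for Tnni1 (SE 0.41, FDR 0.139), 0.55 for Tnnt1 (SE 0.37, FDR 0.218) and 0.49 for Tnnc1 (SE 0.42, FDR 0.322). Myl2 was at 0.49 (SE 0.34, FDR 0.216) and Myl3 at 0.18 (SE 0.29, FDR 0.619). Replicate 8 of 28 months, the highest of its age for all 5 slow genes, weighed on these values. Without it Myl2 was at 0.30, Myl3 at 0.04 and Tnnc1 at 0.34. Without replicate 7 of 8 months, the lowest there, Tnnt1 was at 0.40 and Tnni1 at 0.56. Without replicate 3 of 8 months, the highest there, Myl2 was at 0.67 and Myl3 at 0.35. In that setting Tnnc1 was at 0.79, Tnnt1 at 0.83 and Tnni1 at 0.94. The 95% intervals reached from -0.11 to 1.52 for Tnni1 and from -0.41 to 0.78 for Myl3, and both hold 0. The highest medians of the log2 fold changes were at 24 months (0.64, from 0.53 to 0.76) and the lowest at 18 months (-0.33, from -0.42 to -0.22). The 5 slow values share 1 sign at each of these ages, but the genes vary together among mice, as described next, and are not separate evidence. Against 22 months the slow genes at 28 months lay between 0.08 (Myl3, FDR 0.839) and 0.61 (Tnni1, FDR 0.224).

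The spread of the slow genes within an age was among the largest of all genes tested. The SD of log2(CPM + 1) within ages was 1.004 for Tnnc1, 0.96 for Tnni1, 0.87 for Tnnt1, 0.76 for Myl2 and 0.67 for Myl3, beside a median of 0.22 over the 12586 genes tested. Only 9 of the genes tested varied more than Tnnc1, and 99.2% of them varied less than Myl3. Among genes of a similar level the shares with a smaller SD were 99.8% for Tnnc1 and 98.0% for Myl3. The fast genes were ordinary in this respect, with SDs from 0.19 (Tnnt3) to 0.29 (Mylpf). The lowest slow values of all belonged to replicate 3 of 22 months, with 3.17 CPM of Tnnc1 (54 counts) and 3.23 CPM of Tnni1 (55 counts), while replicate 6 of the same age had 140 and 119 CPM.

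The slow genes were high or low together in the same mice. At 8 months replicate 7 was the lowest and replicate 3 the highest mouse for all 5 slow genes, and at 26 months replicates 9 and 4 held these places for all 5. At 28 months they were replicates 4 and 8, again for all 5. The other ages were less uniform, with 1 mouse lowest for 5 and 1 highest for 4 of the 5 genes at 22 months, for 4 and 4 at 24 months and for 3 and 4 at 18 months. After subtracting the mean of each age, log2 CPM of the 10 slow pairs gave Pearson's r from 0.88 to 0.99 and Spearman's rho from 0.86 to 0.98 over 50 mice (permutation p = 1e-05 for each, permuted within ages, the smallest that 100000 permutations can give). When the 2 mice farthest from the median in the first gene of a pair were removed, r remained between 0.84 and 0.98. Mice distant in the second gene alone were kept. The 10 fast pairs gave r from 0.44 to 0.87 and rho from 0.40 to 0.82 (largest permutation p 0.002 for r and 0.007 for rho), and r from 0.28 to 0.82 after the same removal. Pairs of a slow and a fast gene gave r from -0.44 to -0.17, below 0 in all 25 pairs. Genes of the same mouse share its library and its scaling factor, also in the slow pairs and the fast pairs. The permutations do not keep this sharing, so their p values cannot tell it apart from other reasons to vary together. No test was made for the 25 pairs of a slow and a fast gene.

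**Figure D4:**
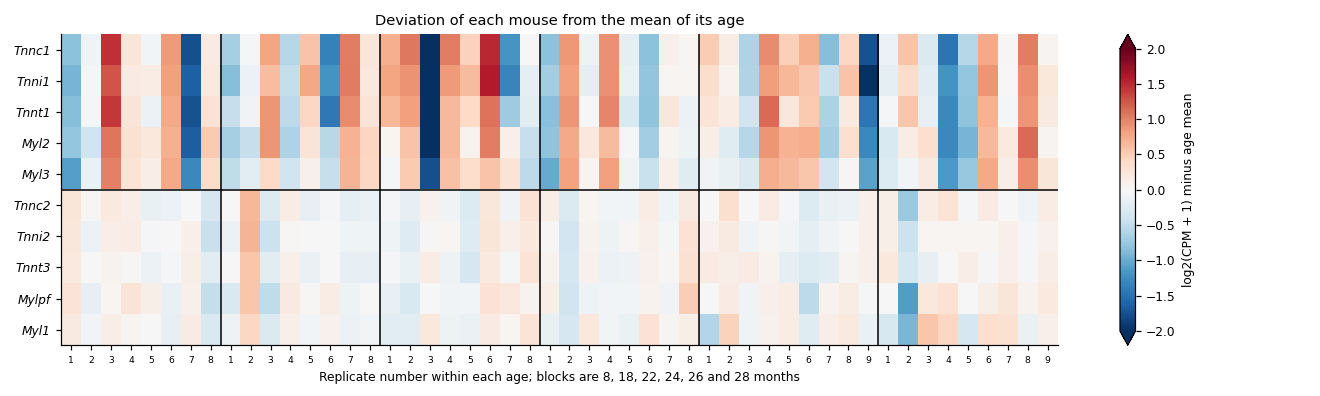
Difference of log2(CPM + 1) of each mouse from the mean of its age (red higher, blue lower, colors end at ±2), for the 5 slow genes (top rows) and 5 fast genes (bottom rows) and all 50 mice in columns, with ages divided by black lines. The slow rows change color together, as in replicate 3 at 22 months, and the fast rows are paler. Replicate 2 of 18 months is high and replicate 2 of 28 months low in all 5 fast rows. Single fast genes also deviate in other mice, as Myl1 in replicate 1 of 26 months (low).

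The share of the slow form within each pair was small at every age. It was computed for each mouse from TPM as a description without a test. Slow troponin C made up 0.750 ± 0.442% of Tnnc1 plus Tnnc2 at 8 months (SD, n = 8) and 1.44 ± 0.861% at 28 months (SD, n = 9). The share of Tnni1 was 0.552 ± 0.301% and 1.05 ± 0.522%, and that of Tnnt1 0.460 ± 0.275% and 0.71 ± 0.353%. Light chains had larger slow shares, with 1.92 ± 1.08% and 2.86 ± 1.63% for Myl2 beside Mylpf and 1.83 ± 0.916% and 3.71 ± 1.75% for Myl3 beside Myl1. The means were higher at 28 months in all 5 pairs, but the distributions overlapped, since only 3 to 5 of 9 mice of 28 months were above every mouse of 8 months (5 for Myl3 beside Myl1). Replicate 2 had the highest share of its age for Tnnc1 (2.98%) and Myl2 (5.73%), and without it the means at 28 months were 1.25% for Tnnc1, 0.981% for Tnni1, 0.651% for Tnnt1, 2.50% for Myl2 and 3.43% for Myl3, still above those at 8 months. In the pair of Myl3 and Myl1 the Myl3 level was 446 ± 212 TPM at 8 months and 528 ± 229 TPM at 28 months, a difference within the SD, and the Myl1 level was 24360 ± 1507 and 14540 ± 3965 TPM.

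**Figure D5:**
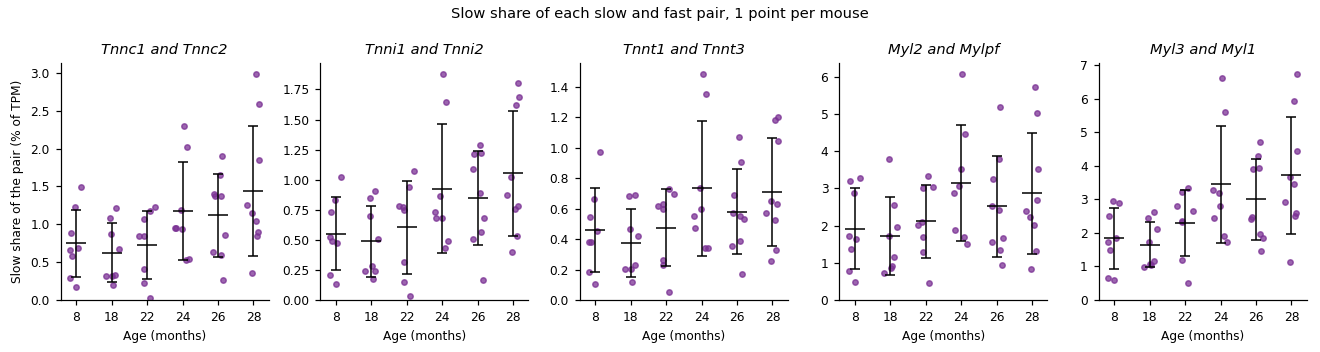
Slow gene as a percentage of the TPM of its slow and fast pair against age in months, 1 point per mouse, with mean ± SD in black; each panel has its own axis from 0. Means at 28 months are above those at 8 months in every panel (Myl3 and Myl1 1.83 and 3.71%), and points of both ages overlap in each.

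Outside the members, the genes whose deviations were most like those of the slow genes over the 50 mice were Tpm3, the slow alpha-tropomyosin, with a mean Pearson's r of 0.93 over the 5 genes, Myh7, the slow myosin heavy chain, with 0.90, and Myh6, the alpha heavy chain of atrium and muscle spindles, with 0.88. The median level of Myh6 over the 50 mice was only 2.52 TPM, beside 111 TPM for Myh7. Whether reads shared with Myh7 add to the Myh6 level was not tested. Myh7 itself had a log2 fold change of 1.25 between 28 and 8 months that did not pass (SE 0.45, FDR 0.0174). The genes most like the fast members were Myoz1, a Z-disc protein of fast fibers (0.85), Tpm1, the fast alpha-tropomyosin (0.84), and Ckm, the muscle creatine kinase (0.82). Tpm1 and Myoz1 fell between 28 and 8 months, by 0.40 (SE 0.12, FDR 0.00592) and 0.45 (SE 0.11, FDR 0.00078), and Ckm was at -0.02 (FDR 0.878). The Tpm1 call was lost without replicate 2 of 28 months (-0.30, FDR 0.012).

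Lists of partner genes were described in the same way between 28 and 8 months, beside the 21% of all genes that were higher and 18.7% that were lower. Of 11 tested partners of slow fibers 3 rose (Ankrd2, Casq2 and Myot) and the other 8 did not pass. Ankrd2, a stretch-responsive protein, rose by 1.14 (SE 0.36, FDR 0.00716) from 89.4 ± 41.1 to 197 ± 111 CPM, and Casq2, the slow and cardiac calsequestrin, by 0.86 (SE 0.21, FDR 0.00055). The Ankrd2 call was lost in 8 of 17 fits that left out 1 mouse, with 0.93 (FDR 0.029) without replicate 2 of 28 months. Of 12 tested partners of fast fibers 3 rose (Myh1, Actn3 and Atp2a1), 4 fell (Casq1, Pvalb, Myoz1 and Tpm1) and 5 did not pass. Casq1, the calcium store protein of fast fibers, fell by 0.86 (SE 0.19, FDR 0.0002) and Pvalb, their soluble calcium buffer, by 0.74 (SE 0.16, FDR 0.00016). Myh4 had a difference of 0.28 (FDR 0.107).

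Of 11 tested genes of the thin filament shared by all fibers, 5 rose and 2 fell. Neb, the filament's ruler, rose by 1.18 (SE 0.28, FDR 0.00057) and Lmod2, an actin nucleator, by 1.02 (SE 0.24, FDR 0.00035), while skeletal actin Acta1 was at -0.08 (FDR 0.539). Cardiac and developmental forms differed widely in level. Myh8, the perinatal heavy chain, had 107 TPM at 8 months and 141 TPM at 28 months, and Actc1, cardiac actin, had 95.2 and 87.4 TPM. Tnnt2, the cardiac and embryonic troponin T, had 0.292 TPM on average at 28 months, and 0 of 5 tested genes of that list passed by edgeR or DESeq2 (3 had an unadjusted edgeR p under 0.05), with Myl4, the atrial and embryonic light chain, at 16.6 TPM at 8 months and 25.3 TPM at 28 months (log2 fold change 0.53, FDR 0.0232). Of 22 tested regulators of fiber type 5 rose and 17 did not pass, and the largest changes among those that passed were in Ppard (0.55, SE 0.13, FDR 0.00045) and Nfatc1, a calcineurin target that acts in slow fibers (0.45, SE 0.09, FDR 5.2e-05). Sox6, a repressor of slow genes, rose as well (0.45, FDR 0.00384).

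Of 9 tested genes of the denervation response 8 rose between 28 and 8 months, among them Runx1, a transcription factor (2.33, SE 0.27, FDR 1.74e-08), which was at a low level of 15.8 CPM at 28 months. Of 8 listed light chains and contractile genes of smooth muscle and non-muscle cells 4 fell, 1 rose and 3 did not pass. Cnn1, calponin of smooth muscle, fell by 1.36 (SE 0.29, FDR 0.00015), and the non-muscle regulatory light chain Myl12a rose by 0.67 (SE 0.10, FDR 1.74e-06). Without replicate 2 of 28 months the calls were 2 of 11 slow partners, 5 of 12 fast partners, 7 of 11 shared thin filament genes, 4 of 22 regulators, 8 of 9 denervation genes and 3 of 8 in the last list. The calls lost were those of Ankrd2, Tpm1, Myh1 (FDR 0.015), Sox6 (FDR 0.0157), Tagln (FDR 0.0245) and Acta2 (FDR 0.0263). The changes of Myh1, Tagln and Acta2 stayed about as large, at 0.64, -0.47 and -0.43, beside 0.67, -0.54 and -0.50 with all mice.

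Markers of other cells were set beside these changes. Between 28 and 8 months 2 of 3 tendon markers (Tnmd and Kera) and 2 of 3 adipocyte markers (Adipoq and Plin1) fell, with summed levels from 28.0 ± 6.39 to 12.4 ± 6.02 TPM and from 78.3 ± 32.8 to 34.2 ± 8.63 TPM. Col1a1 fell among 3 fibroblast markers, Csf1r rose among 3 macrophage markers, and Alas2 rose among 3 erythroid markers, whose sum, led by Hbb-bs, was 1399 ± 615 TPM at 8 months and 2290 ± 1299 TPM at 28 months. The 3 endothelial markers, led by Pecam1, did not pass, with a sum of 84.3 ± 16.6 and 89.8 ± 15.9 TPM, yet among mice of an age they went against the fast genes (mean r of -0.67 for Pecam1). The part of these cells in the results for the fast genes was not tested. The fiber markers themselves summed to 81873 ± 7661 TPM at 8 months and 87482 ± 13394 TPM at 28 months, with Myh1 as the 1 marker of 6 that passed. Among smooth muscle markers Acta2, Tagln and Cnn1 fell and Des, which fibers also express and which was the most abundant, rose. Among these marker calls those of Myh1 (0.64), Acta2 (-0.43), Tagln (-0.47) and Csf1r (0.45, FDR 0.0154) were lost without replicate 2 of 28 months. With all mice these genes were at 0.67, -0.50, -0.54 and 0.57. The other marker calls were kept. The tested markers of nerve, satellite cells, spindle fibers and heart did not pass, with Pax7 at -0.67 (FDR 0.0262) and Myh6 at 0.87 (FDR 0.0284).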

How the data were processed

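Gastrocnemius RNA of 50 mice was sequenced by the authors as stranded paired reads, trimmed with Cutadapt 1.9.1 and assigned with kallisto 0.43.1 to the protein-coding transcripts of an Ensembl release on GRCm38. Reads that fitted more than 1 transcript were split equally, and near-identical copies may therefore share reads. The deposited counts are sums over the transcripts of a gene, without normalization, and the deposited TPM values were divided by transcript length and scaled to library size by the authors.

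From the counts, 1 edgeR 4.0.16 fit over the 6 ages was made in R 4.3.3 (TMM factors, at least 1 CPM in at least 8 mice, quasi-likelihood test, Benjamini-Hochberg adjustment, FDR 0.01). Fold changes are on the log2 scale of fitted counts. TPM served to compare levels between genes. Alternatives were DESeq2 1.42.0, limma 3.58.1 on log2(TPM + 1) and log2(TPM + 0.1), other scaling factors, no filter, the replicate number as a block, a fit on 2 ages alone, and leaving out each mouse. Correlations used log2(CPM + 1) minus the age mean. Nothing states whether same-age mice share litters or preparation days. No 2 libraries of an age were near copies, since their counts differed at least 6.96 times more than counting noise. All depth statements cover counting error only.

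The members, lists and tests were chosen with earlier results of these data known. The genes named are the 10 members, the 2 genes of each list with the largest change between 28 and 8 months past FDR 0.01, the 3 genes most like the slow and the 3 most like the fast members, and cell type markers; other names were added after their values were seen. A result that this rule would name is not reported here.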

Additional observations from a re-analysis of the deposited data

Results flagged for a closer look

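In 102 groups of values (10 members, 5 slow shares and 2 ratios at each of 6 ages), 7 had a lowest or highest mouse far from the others by Dixon's criterion, and chance gives about 1 in 20 of such groups.

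In replicate 2 of 28 months, 3 fast genes were far below the other 8 mice, namely Tnnc2 with 4462 CPM (the next mouse had 7088), Tnni2 with 5771 CPM (next 7630) and Mylpf with 3605 CPM (next 7733). Its slow genes were within the range of the age, with 139 CPM of Tnnc1 and 225 CPM of Myl2, and its Tnnt3, 15734 CPM, was the lowest of the age without being far off.

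In replicate 2 of 18 months, 3 fast troponin genes were far above the other 7 mice, with 14672 CPM of Tnnc2 (next 10202), 14519 CPM of Tnni2 (next 9264) and 30537 CPM of Tnnt3 (next 22331). Its Mylpf (11327 CPM) and Myl1 (13898 CPM) were also the highest of that age.

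In replicate 6 of 26 months Mylpf was low with 5953 CPM, where the next mouse had 8203 CPM. The causes of these deviations were not tested.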

How the results depend on the processing

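The calls of Myl1 between 28 and 8 months held under all 8 alternatives (log2 fold change -0.85 to -0.79) and without each mouse, and the count of slow genes past the threshold was 0 in every comparison and setting. The fast genes past the threshold between 28 and 8 months numbered 2, and 1 without the filter on low genes and in a fit of the 2 ages alone, where Tnnc2 had FDR 0.0122 and 0.0208. Over all genes 39.6% passed in the main fit, 21.6% without the filter and 27.4% in the fit of the 2 ages. Without filter more genes were tested, and the fit on 2 ages had fewer mice. Between 28 and 22 months the count was 1, but 2 with upper-quartile factors, library size alone and limma with either pseudocount, all through Tnnc2 (FDR 0.00118 to 0.00611), and 0 in a fit of the 2 ages alone, where Myl1 had FDR 0.0111. Over all genes 27.7% passed between 28 and 22 months in the main fit and 15% in the fit of the 2 ages. The shares were 27.3% with upper-quartile factors, 25.3% with library size alone and 22.7 and 22.1% in limma with pseudocounts of 1 and 0.1. The count over any age was 1, and 2 with library size alone and both limma fits, again with Tnnc2 (FDR 0.00069 to 0.00777). Tnnt3 between 28 and 8 months turned to 0.0029 in both limma fits.

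Leaving out 1 mouse gave 1 to 2 fast genes between 28 and 8 months, 0 to 1 between 26 and 8 months and 1 to 2 between 28 and 22 months (2 without replicate 5 of 22 months or replicate 4 of 28 months). The share over all genes was not counted in these fits. Mylpf ranged from -0.122 to 0.0336 against 8 months and from -0.107 to 0.0276 against 22 months, above 0 without replicate 2 of 28 months. Myl3 between 28 and 22 months ranged from -0.0644 (without replicate 8 of 28 months) to 0.183, and was also below 0 without replicate 3 of 22 months (-0.0639) or replicate 6 of 28 months (-0.0231). Ankrd2 lost its call in 4 alternatives (FDR up to 0.0134) and without any 1 of 8 of the 17 mice (FDR up to 0.029), namely replicates 1, 2, 4, 5 and 7 of 8 months and 2, 6 and 8 of 28 months. Without replicate 2 of 28 months, a setting added after seeing the data, the calls among smooth muscle and non-muscle light chains went from 5 to 3. With the replicate number as a block, 2 fast and 0 slow genes passed between 28 and 8 months (Myl1 -0.82, Tnnc2 -0.37) and no call of a member changed. In that fit 39.4% of all genes passed. Same-numbered mice of 8 and 28 months correlated with a median r of 0.07 (3 of 8 above 0.1, and 0 mice correlated best with their own number), and those of 22 and 28 months with 0.10 (4 of 8 above 0.1, highest 0.376, and 4 mice best with their own number). Mice of different numbers had a median r of 0.005 between 8 and 28 months and of -0.004 between 22 and 28 months. Not every same-numbered pair was above 0.1 in either, and the labels state no pairing, so that the numbers were not taken as pairs. Whether the same number marks mice handled together was not tested. The spread of the slow genes limits what 8 or 9 mice can show, and the 95% intervals give the range of changes these mice leave possible.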
